A study of Mus musculus with 8 samples.

Results

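ATP-dependent chromatin remodellers are the enzymes that slide, eject or exchange nucleosomes. The genes described here are those of the SWI/SNF (BAF), ISWI, CHD and INO80 families, the MTA subunits of the NuRD complex, related SNF2 ATPases and the ARID proteins. They were taken by symbol from the table of expression values: every line whose symbol begins with Smarc, Chd, Arid, Ino80 or Actl6 followed where needed by a digit, the lines Mta1 to Mta3, and Pbrm1, Atrx, Ruvbl1, Ruvbl2, Srcap, Ep400 and Hells. The rule found 55 of 45706 gene lines. Of these, 50 are protein-coding genes of a remodelling complex or family. The other 5 are the pseudogenes Smarca5-ps and Smarce1-ps1, the non-coding RNA Ino80dos, the line Chd3os, which GENCODE M21 names Rnf227, and a second line with the symbol Srcap, whose identifier belongs to Gm42715, a gene overlapping Srcap. A filter on low counts was passed by 53 lines and not by Actl6b and Chd3os.

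RNA-seq was done on 5 libraries of freshly isolated muscle stem cells and on 3 libraries of the same kind of cell after 48 h in culture on a 12 kPa hydrogel, in medium with 20% fetal bovine serum. All cells came from wild-type female C57BL/6 mice aged 8 to 12 weeks, from the hindlimb muscles. Sorting kept cells with α7-integrin and CD34 and removed those with CD45, CD31, CD11b or Sca1. The groups carry no allele or agent other than culture. Fresh replicates 1 to 3 were sequenced in run 1, and fresh replicates 4 and 5 in run 2 with cultured replicates 1 to 3. The comparison asks which remodeller transcripts differ between stem cells as they leave the animal and after 48 h of culture.

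Each remodeller family has a SNF2-type ATPase motor and family-specific partners. SWI/SNF complexes carry one of the alternative motors BRG1 (Smarca4) or BRM (Smarca2) and open regulatory DNA, and ISWI complexes space nucleosomes. CHD3, CHD4 and CHD5 are the motors of NuRD, which joins remodelling to histone deacetylation. INO80, SRCAP and EP400 act on the histone variant H2A.Z and share the ring ATPases RUVBL1 and RUVBL2. In muscle stem cells SWI/SNF is known as a coactivator of the myogenic factors, and quiescent cells are known to enter the cycle once they are isolated and cultured.

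Whether the libraries are from separate animals or cultures is not stated in the labels, and p-values then reflect the spread of these 8 libraries alone, part of which may be technical. Library totals ranged from 13919440 to 20068154 counts, and the 55 lines took 0.476 to 0.660% of them. Of all counts, mitochondrial ribosomal RNA made up 5.25 to 10.5% in fresh replicates 1 to 3, 26.5% and 23.2% in fresh replicates 4 and 5, and 11.1 to 18.4% after culture. Lines with a count numbered 32710 to 34689, 20480 and 20898, and 15415 to 17852 in the same order, so the fresh runs stood apart in both. The part of these differences in the results was not tested. The 8 markers of S phase and mitosis summed to 50.4 to 118 CPM (counts scaled to the size of the library) in fresh and 1224 to 1636 CPM in cultured libraries, and 8 of 8 were higher in culture. The 8 stem cell markers summed to 2751 to 4496 and 595 to 650 CPM, and 6 of 8 were lower in culture. Itga7 (log2 fold change 0.62, edgeR adjusted p = 0.241) and Cd34 (-0.25, 0.638), the genes of the markers kept in the sort, were not called. Markers of other cells also moved with culture: 6 pericyte markers summed to 277 to 2297 CPM in fresh and 0.211 to 11.4 CPM in cultured libraries (Abcc9 and Kcnj8 at 0 in all cultured libraries). For 5 Schwann cell markers the sums were 50.8 to 806 and 0.0527 to 3.47 CPM (Sox10 and Cdh19 at 0), and for 5 fibro-adipogenic markers 550 to 940 and 7.59 to 18.9 CPM. Most of the fibro-adipogenic sum was Dcn and Col3a1 in every library. Ly6a, at 0 in culture, reached only 1.34 CPM in fresh libraries. Ly6a and Pdgfra were not called (edgeR adjusted p = 0.134 and 0.672). Endothelial markers (6 genes) summed to 78.1 to 119 and 0.720 to 41.2 CPM, where Tek and Cdh5 fell in culture. In cultured replicates 1 and 3 nearly all of that sum was Pecam1, which encodes the CD31 of the sort, at 35.1 and 38.1 CPM against 0.195 to 4.50 CPM in fresh libraries and 0.103 CPM in cultured replicate 2 (log2 fold change 5.48, edgeR adjusted p = 0.0677). Blood markers (6 genes) summed to 4.30 to 22.7 and 0.255 to 5.92 CPM. Fewer cells of a type and less RNA per cell cannot be told apart in such bulk libraries. The part of other cells in the falls described below was not tested. Pericyte and Schwann markers were lowest in fresh replicate 1. For each gene called lower below, the log2 ratio of that library to the mean of fresh replicates 2 and 3 was taken. It was 0.44 (Smarca2), 0.16 (Chd6), 0.02 (Arid5a), 0.58 (Arid1b), 0.58 (Chd7) and 0.09 (Chd2). The ratio was below 0 for Chd3 (-0.50), Smarca1 (-0.42), Arid5b (-0.10) and Atrx (-0.04).

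Promoter sequence was read for the members with the largest called changes at a mean of at least 10 CPM, from the RefSeq promoter table on GRCm38.p6, which matched 41 of the 55 lines. Hells and Ruvbl2 are shown for the rises, and Arid5a and Smarca2 for the falls. Chd3, which fell further than Smarca2, is named only. All are bases before the RefSeq start site, 5′ to 3′ on the gene's strand, and only 30 bases are given of Hells and Ruvbl2, since GENCODE M21 has exons within their windows, and these bases lie inside its models of both genes. The Smarca2 window ends in 110 bases of GENCODE exon, so only the 140 bases before them are given. Capitals mark the E2F motif TTTCCCGC in Hells and the CCAAT box in Ruvbl2 (here its reverse complement, ATTGG) and Arid5a, and no motif searched lies in the Smarca2 stretch.
Hells, chr19:38930917-38930946, plus strand: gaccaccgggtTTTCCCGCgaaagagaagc
Ruvbl2, chr7:45434645-45434674, minus strand: agcatggaagtgATTGGtgaacagagctgt
Arid5a, chr1:36307483-36307732, plus strand: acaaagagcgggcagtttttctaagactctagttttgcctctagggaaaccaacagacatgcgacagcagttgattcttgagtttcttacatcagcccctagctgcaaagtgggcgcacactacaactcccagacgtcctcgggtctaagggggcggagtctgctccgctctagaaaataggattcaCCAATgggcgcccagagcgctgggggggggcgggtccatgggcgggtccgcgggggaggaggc
Smarca2, chr19:26604910-26605049, plus strand: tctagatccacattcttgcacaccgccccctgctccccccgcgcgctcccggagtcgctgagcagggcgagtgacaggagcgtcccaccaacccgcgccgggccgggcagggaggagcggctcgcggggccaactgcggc
The E2F match in Hells starts 62 bases before the start site, and the CCAAT boxes shown start 198 bases (Ruvbl2) and 63 bases (Arid5a) before it. The Ruvbl2 window holds another CCAAT match, 163 bases before the start site and outside the 30 bases shown. Motifs were searched on both strands in the 250 bases before the start of 27025 genes. The E2F letters were in 0.929% of these windows and in 2 of the 40 member genes with a window, Hells and Smarcd1. CCAAT was in 34.5% of windows and in 13 of the 40 genes, and the E-box CACGTG in 6.05% and in 2 (Ino80e and Pbrm1). The E2F variant TTTGGCGC (0.437% of windows) was in no member window. The E-box letters read the same on both strands, and none of these motifs holds the letters of another. A match is a description of these letters and no measure of binding.

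Culture moved remodeller genes in both directions. Of 53 lines tested, 7 rose and 10 fell past an adjusted p of 0.05 (edgeR quasi-likelihood test, run and culture in the model). The 7 that rose were Hells, Ruvbl2, Ruvbl1, Smarcc1, Smarca4, Ino80 and Smarcb1, and the 10 that fell were Smarca1, Arid5a, Chd3, Smarca2, Arid5b, Chd6, Arid1b, Chd2, Atrx and Chd7. These are 13.2% and 18.9% of the lines tested, against 8.87% higher and 18% lower (26.9% together) among all 19054 genes tested. The shares lie near the background and are no result about the family. The median log2 fold change was 0.16 for the 53 lines and -0.21 for all genes. Cultured libraries lay all above or all below the fresh ones in 25 of the 53 (14 above and 11 below), against 39.9% of all genes (13.7% above and 26.1% below). Levels below are CPM of the scaled library, listed in the order of the replicates, with mean ± SD where given (n = 5 fresh and 3 cultured). Fold changes are log2, cultured minus fresh, ± SE.

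Of the 17 calls, 8 held in all 18 alternative analyses: Smarca2, Smarcc1, Chd3, Chd6, Ruvbl1, Ruvbl2, Hells and Arid5a. The split between the directions moved with scaling. Without scaling factors, which put the median of all genes at 0.03, 13 lines were higher and 6 lower. Of all genes, 12.9% were then higher and 15.0% lower. The split was 17 higher and 6 lower with trends in GC content and transcript length removed, which also put that median at 0.03. Under that removal 13.0% of all genes were higher and 15.2% lower. Transcript length differed between the members and other genes: 32 of the 53 lines had a longest transcript in the longest of 5 equal groups of genes (4971 bases or more). In that group the median log2 fold change was -0.53 and 24.5% of genes were lower and 8.73% higher in culture. The part of length in the falls was not tested by itself, since that removal takes out GC content and length together. Its trends were fitted to each library's deviations from the gene means, which hold the culture difference too. Under that removal, Atrx, Chd2 and Chd7 changed sign and Arid1b, at -0.34, lost its call. The 8 stable calls remained under it, at -2.73 for Smarca2, -2.80 for Chd3, -1.32 for Chd6, -3.96 for Arid5a, 2.55 for Smarcc1, 2.11 for Ruvbl1, 3.13 for Ruvbl2 and 4.88 for Hells. Smarca4 (2.40), Ino80 (2.20), Smarcb1 (2.07), Smarca1 (-5.42) and Arid5b (-2.18) also stayed past the threshold.

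**Figure D1:**
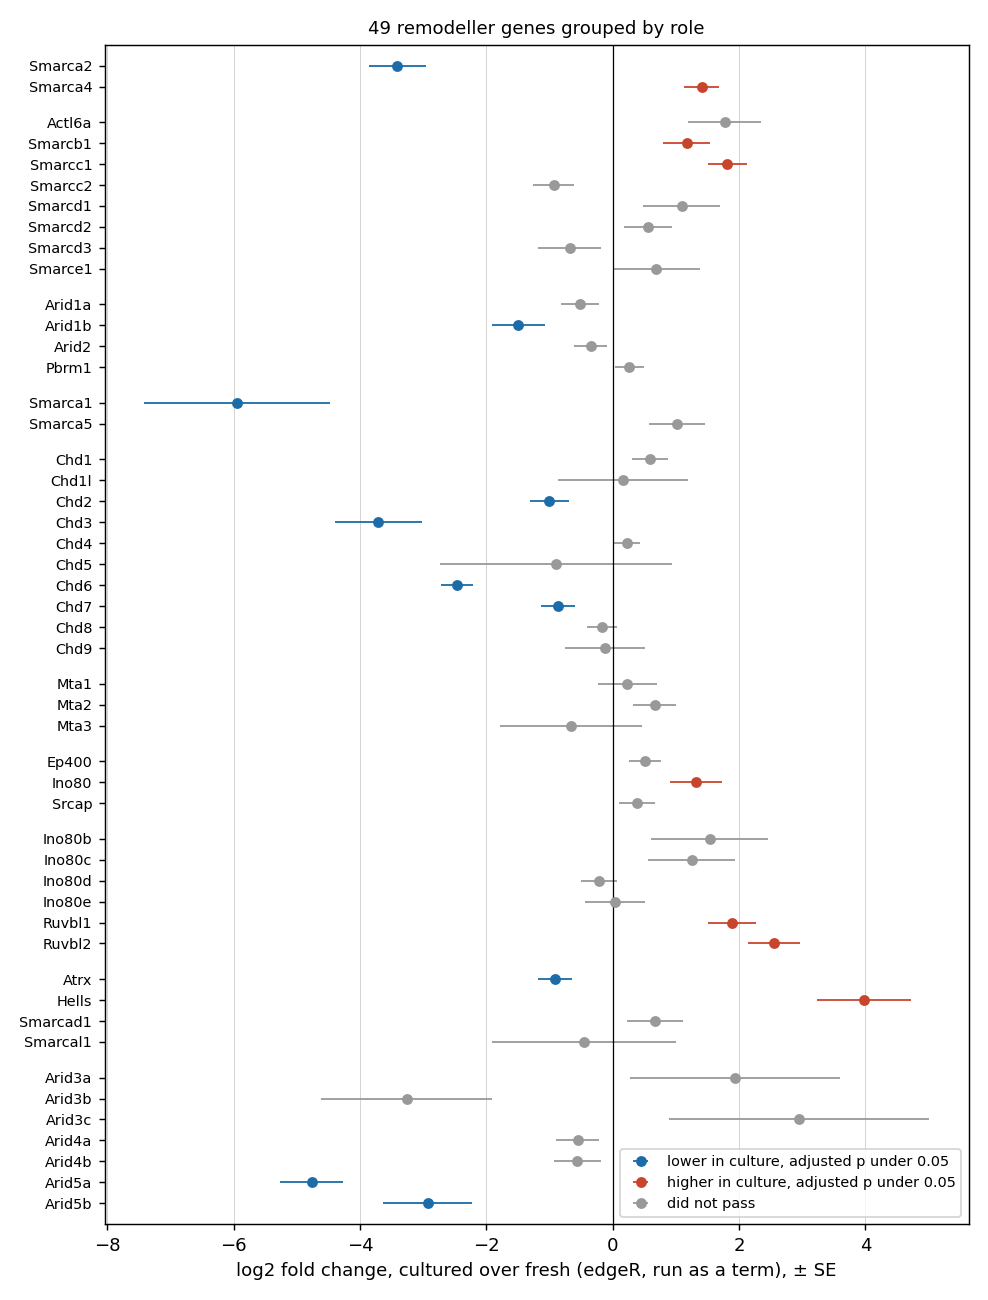
Log2 fold change of the 49 tested genes of a complex or family (x axis, cultured over fresh, edgeR), grouped by role, with ± SE as bars and colour for the call at an adjusted p of 0.05. The 7 genes called higher run from Smarcb1 at 1.17 to Hells at 3.98, and the 10 called lower from Chd7 at -0.87 to Smarca1 at -5.94.

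Both SWI/SNF motors changed, in opposite directions. Smarca2 (BRM; ENSMUSG00000024921, chromosome 19, 26605050 to 26778322, GENCODE M21 on mm10) stood at 316, 264, 203, 362 and 269 CPM in the fresh libraries and 23.5, 49.4 and 16.2 CPM in the cultured ones. Every cultured library lay far below every fresh one, and the gene fell from 283 ± 59.8 to 29.7 ± 17.4 CPM (-3.41 ± 0.45, adjusted p = 0.00136). Smarca4 (BRG1; ENSMUSG00000032187, chromosome 9, 21616169 to 21704230) stood at 105, 80.2, 69.7, 83.7 and 106 CPM in the fresh and 262, 279.7 and 214 CPM in the cultured libraries. Here all cultured libraries were above all fresh ones, and the gene rose by 1.41 ± 0.28 (adjusted p = 0.00691), with an adjusted p of 0.0531 without fresh replicate 4. The log2 ratio of Smarca2 to Smarca4 counts, which does not depend on the scaling of the libraries, was 1.59, 1.72, 1.54, 2.11 and 1.34 in the fresh and -3.48, -2.50 and -3.73 in the cultured libraries. It fell by 4.90 (exact permutation test over the 56 regroupings of the libraries, two-sided on the size of the difference, p = 0.0179, the smallest possible; adjusted over 17 pairs, p = 0.0337), and within run 2 it fell by 4.96. The regroupings exchange libraries across the runs, so this p and those of the other ratios take no account of run. Per length of the longest transcript, Smarca2 made up 77.1% ± 3.38 (SD, n = 5) of the sum of both in fresh and 10.8% ± 4.55 (SD, n = 3) in cultured cells.

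**Figure D2:**
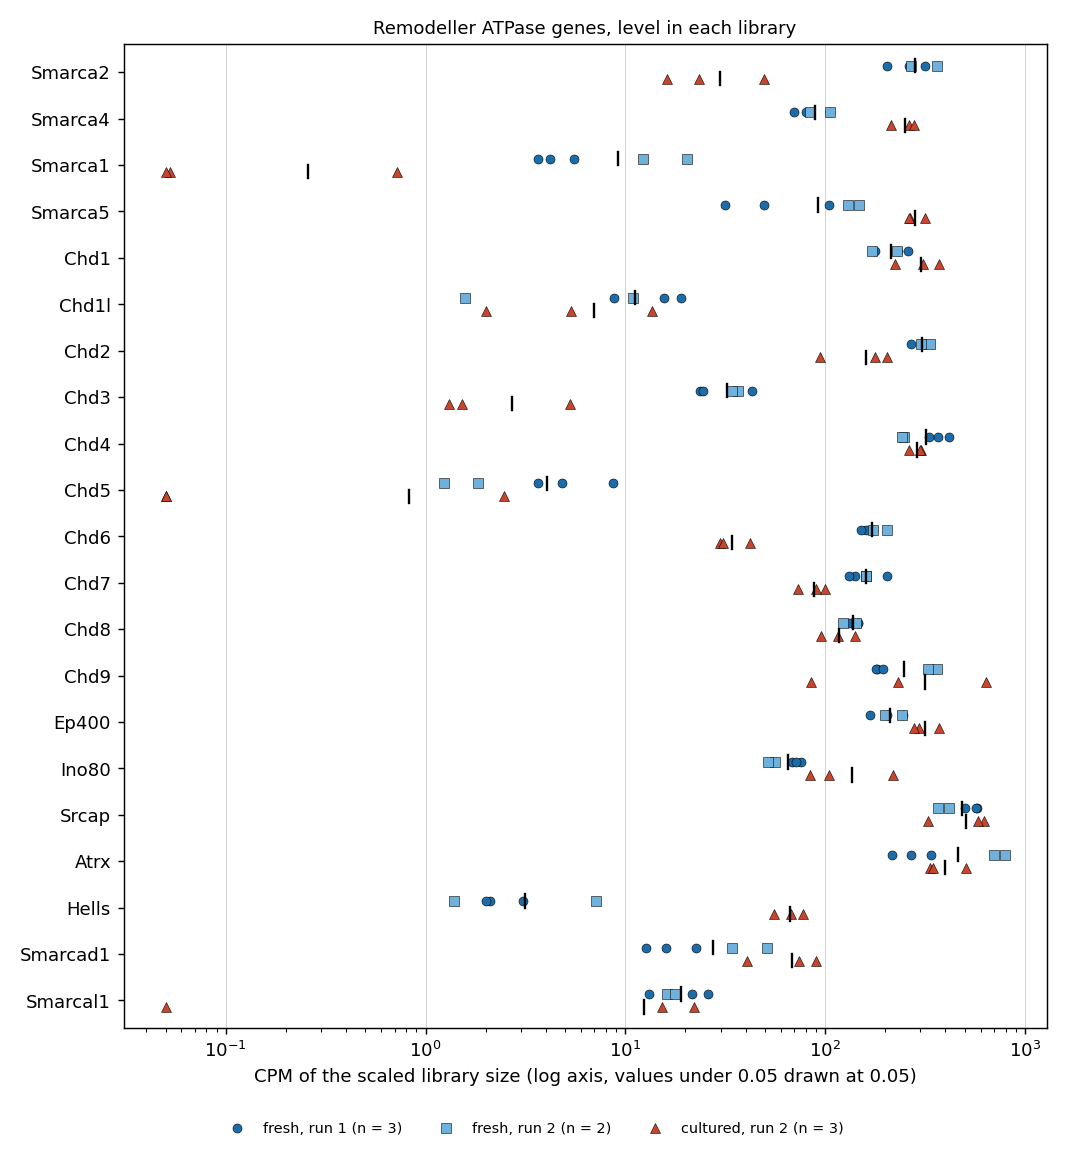
Level of each tested ATPase gene (CPM of the scaled library, log axis) in each library, with a bar at each group mean. Circles are fresh libraries of run 1, squares fresh libraries of run 2 and triangles cultured libraries. Smarca2 and Chd6 triangles lie left of all fresh points and Smarca4 and Hells triangles right of them, while Atrx fresh points split by run around the cultured ones.

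Among the 8 tested core and shared SWI/SNF subunits, 2 rose and none fell, against 8.87% higher and 18% lower among all genes. At an unadjusted p of 0.05, and also in DESeq2, 3 rose and 1 fell. Among all 19054 genes, 2693 rose and 4846 fell at that p, and 13.1% rose and 22.8% fell in DESeq2. The scaffold BAF155, Smarcc1 (ENSMUSG00000032481, chromosome 9, 110117708 to 110240178), stood at 104, 75.3, 64.5, 109.7 and 72.2 CPM in fresh and 312, 359.7 and 288 CPM in cultured libraries. The groups did not overlap, and Smarcc1 rose by 1.82 ± 0.31 (adjusted p = 0.00416). Its paralog Smarcc2 (BAF170) stood at 120.0, 129, 129, 119 and 115 CPM in fresh libraries, a coefficient of variation of 5.18%, and at 38.9, 88.1 and 56.8 CPM in cultured ones. All cultured values were lower, but the gene missed the threshold (-0.93 ± 0.33, adjusted p = 0.0660). Without cultured replicate 2 it passed (-1.27, adjusted p = 0.0176). The Smarcc2 to Smarcc1 log2 ratio fell from 0.56 ± 0.38 to -2.46 ± 0.50 (SD; difference -3.01, exact permutation test, adjusted p = 0.0337). Smarcb1 (SNF5), the core subunit that is lost in rhabdoid tumours, stood at 31.8, 33.7, 24.7, 17.2 and 22.0 CPM in fresh and 53.8, 41.2 and 37.3 CPM in cultured libraries. It rose by 1.17 ± 0.38 with an adjusted p of 0.0493, just inside the threshold, and kept its call in 5 of the 18 alternatives. It lost it without any 1 of the 5 fresh libraries and without cultured replicates 1 or 2 (adjusted p = 0.0528 to 0.206).

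The 3 alternative BAF60 subunits did not pass the test. Smarcd1 (BAF60A) stood at 18.7, 21.7, 10.6, 18.2 and 10.5 CPM in fresh and 36.3, 41.0 and 14.5 CPM in cultured libraries. Smarcd2 (BAF60B) gave 20.7, 21.2, 19.1, 19.0 and 21.4 CPM in fresh and 32.0, 27.9 and 29.0 CPM in cultured ones. Smarcd3 (BAF60C), the form that works with MyoD in muscle cells, stood at 30.9, 20.6, 14.4, 28.3 and 27.6 CPM in fresh and 12.5, 25.0 and 14.8 CPM in cultured libraries. Only Smarcd2 of the 3 had groups that did not overlap, with all cultured values higher, and the log2 fold changes were 1.09 ± 0.61, 0.55 ± 0.38 and -0.68 ± 0.50 (adjusted p = 0.221, 0.321 and 0.357). The Smarcd3 to Smarcd1 log2 ratio was 0.62 ± 0.53 in fresh and -0.74 ± 0.78 in cultured cells (SD), a difference of -1.36 that missed the threshold (exact permutation test, adjusted p = 0.0607). Actl6a (BAF53A), the actin-related subunit of dividing cells, stood at 14.9, 11.0, 11.3, 15.2 and 9.32 CPM in fresh and 21.2, 65.5 and 39.2 CPM in cultured libraries. All cultured values were higher, and the gene missed the threshold by little (1.77 ± 0.58, adjusted p = 0.0512). Its neuronal paralog Actl6b held 2, 4, 20, 1 and 1 counts in the fresh and 0, 3 and 1 in the cultured libraries and was too low to test. The remaining core gene, Smarce1 (BAF57), gave 15.0 to 113 CPM in cultured against 27.9 to 48.1 CPM in fresh libraries and did not pass (0.69 ± 0.69, adjusted p = 0.502).

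Of the 4 subunits that define the kind of SWI/SNF complex, only Arid1b passed, against 26.9% of all genes called in either direction. Arid1b (BAF250B) stood at 135, 96.6, 83.7, 116 and 139 CPM in fresh and 32.8, 74.2 and 29.1 CPM in cultured libraries. Cultured values were all lower, and Arid1b fell by 1.49 ± 0.42 on the log2 scale (adjusted p = 0.0306). The call was kept in 8 of 18 alternatives and was lost without fresh replicates 2, 4 or 5 and without cultured replicates 1 or 3 (adjusted p = 0.0505 to 0.164). Its paralog Arid1a (BAF250A) stood at 287, 268, 237, 251 and 315 CPM in fresh and 129.9, 268 and 193 CPM in cultured libraries. The PBAF subunit Arid2 gave 147, 130.5, 138, 157 and 137 CPM in fresh and 104, 147 and 94.4 CPM in cultured ones. Both overlapped between the groups (Arid1a -0.52 ± 0.30, adjusted p = 0.241; Arid2 -0.35 ± 0.26, adjusted p = 0.352), and both were above 0 with GC and length trends removed. The Arid1b to Arid1a log2 ratio fell by 0.92 (exact permutation test, adjusted p = 0.0337). Pbrm1, the polybromo subunit of PBAF, ranged from 101 to 217 CPM in fresh and from 217 to 234 CPM in cultured libraries, which lay just above all fresh ones, without passing (0.26 ± 0.23, adjusted p = 0.441). It passed against run-1 fresh libraries only (1.03, adjusted p = 0.00553), with the replicate block (1.03, 0.0429) and with GC and length trends removed (1.10, 0.0197).

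**Figure D3:**
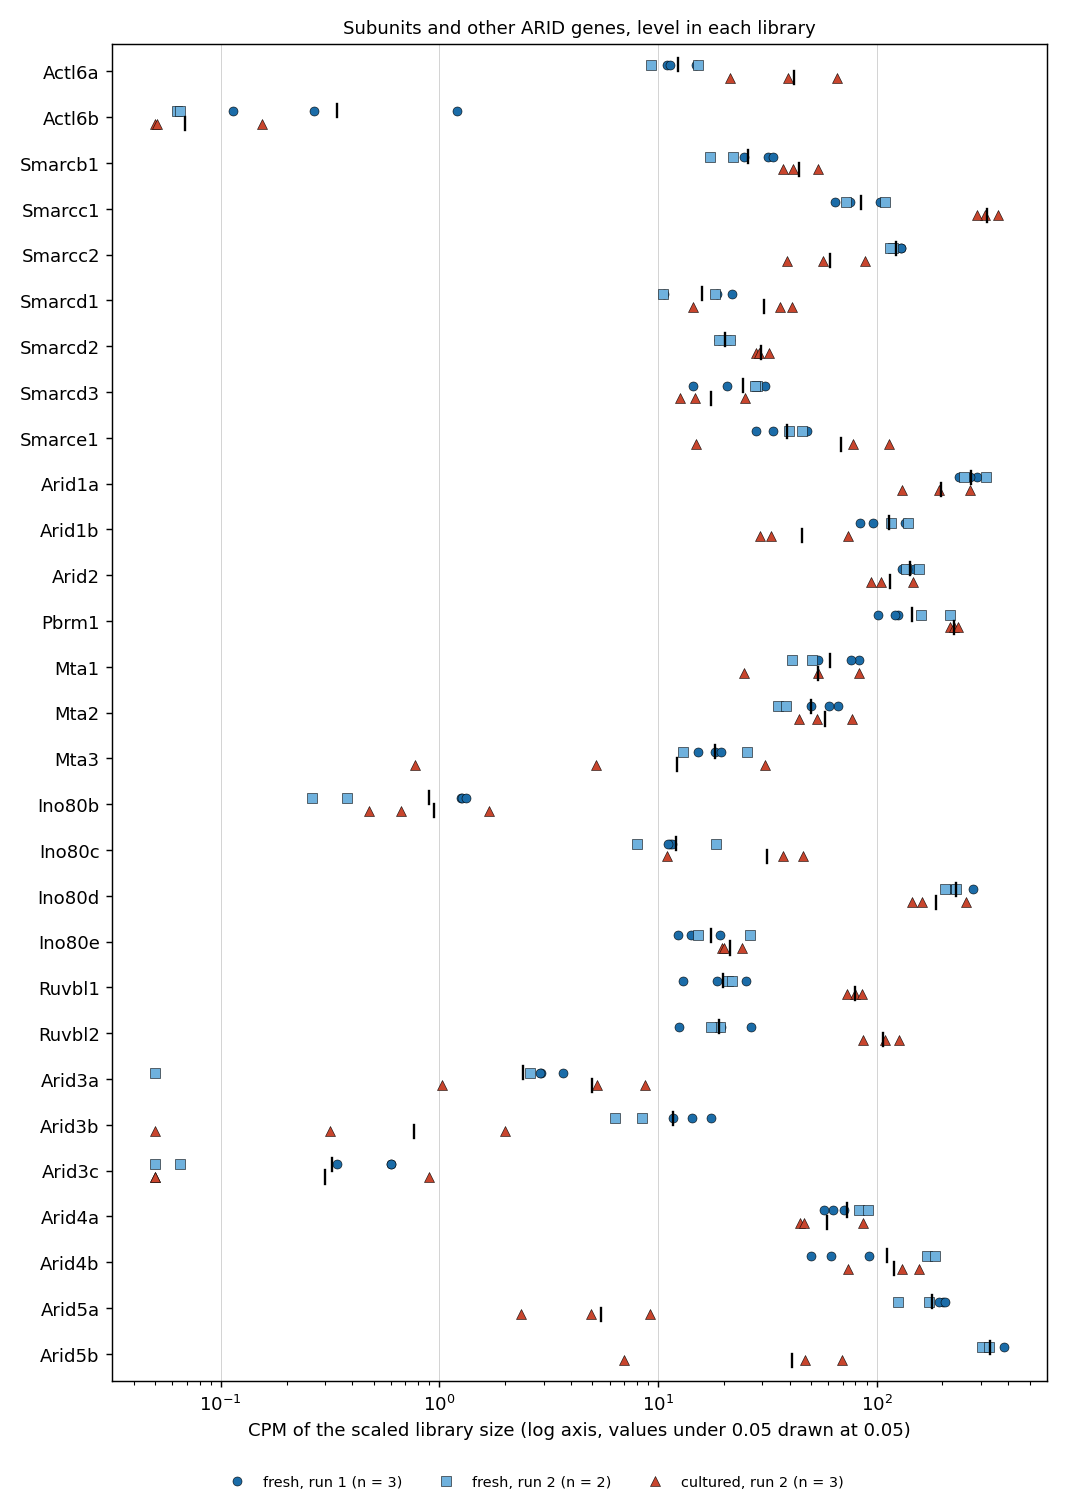
Level of each subunit and other ARID gene (CPM of the scaled library, log axis, values under 0.05 drawn at 0.05) in each library. Circles are fresh libraries of run 1, squares fresh of run 2, triangles cultured, and bars group means. Smarcc1, Ruvbl1 and Ruvbl2 triangles lie right of all fresh points and Arid5a and Arid5b triangles left of them.

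The 2 ISWI motors diverged as well. Smarca1 (SNF2L) stood at 3.65, 4.21, 5.52, 12.3 and 20.4 CPM in fresh and 0.0527, 0.720 and 0 CPM in cultured libraries, which held 1, 14 and 0 counts. All cultured libraries were lower, and Smarca1 fell by 5.94 ± 1.47 on the log2 scale (adjusted p = 0.0172). The size rests on few counts. Without cultured replicate 2, 1 count remained in culture and the fitted value, which then depends on the prior count, was -8.94. It was -5.32 without cultured replicate 3 and -3.99 against run-1 fresh libraries only. The call was lost without fresh replicates 4 or 5, within run 2, against run-1 fresh libraries only and with the replicate block (adjusted p = 0.0501 to 0.105). Smarca5 (SNF2H), the more abundant motor, stood at 49.3, 31.7, 105, 147 and 131 CPM in fresh and 315, 265 and 264 CPM in cultured libraries. All cultured values were higher, but the fresh libraries of run 2 also exceeded all of run 1, and the gene did not pass (1.02 ± 0.45, adjusted p = 0.126). It did in 7 of the 18 alternatives: without fresh replicate 3 (1.01, adjusted p = 0.0337), within run 2 (1.00, 0.0425), without scaling factors (1.43, 0.0367), with no run term (1.60, 0.0159), against run-1 fresh libraries only (2.24, 0.00561), with the replicate block (2.43, 0.0124) and with GC and length trends removed (1.75, 0.0146). The Smarca1 to Smarca5 log2 ratio was -3.75, -2.90, -4.24, -3.58 and -2.68 in fresh and -11.96, -8.47 and -13.34 in cultured libraries and fell by 7.83 (exact permutation test, adjusted p = 0.0337). The pseudogene Smarca5-ps took 10.2 to 14.3% of the summed level of both lines in fresh and 13.0 to 14.8% in cultured libraries, so reads divided between the copies leave the level of Smarca5 uncertain.

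Of the 10 CHD genes, 4 fell and none rose, against 18% lower and 8.87% higher among all genes. The counts of these 10 were the same at an unadjusted p of 0.05 and in DESeq2. Among all 19054 genes, 4846 fell and 2693 rose at that p, and 22.8% fell and 13.1% rose in DESeq2. Chd6 (ENSMUSG00000057133, chromosome 2, 160946978 to 161109075), a motor linked to stress responses, stood at 174, 160.3, 151, 205 and 173 CPM in fresh and 41.9, 29.8 and 30.7 CPM in cultured libraries. The groups lay far apart with a small spread in each, and Chd6 fell by 2.47 ± 0.25 on the log2 scale (adjusted p = 0.000404), the lowest adjusted p of all 53 lines. Chd3 (ENSMUSG00000018474, chromosome 11, 69343273 to 69369406), a NuRD motor, stood at 23.8, 42.9, 24.3, 36.8 and 34.3 CPM in fresh and 1.32, 5.30 and 1.53 CPM in cultured libraries. Cultured values were all lower, and Chd3 fell by 3.71 ± 0.69 on the log2 scale (adjusted p = 0.00561), or by 4.62 without cultured replicate 2. Chd2 stood at 312, 268, 316, 334 and 303 CPM in fresh and 179, 205 and 94.4 CPM in cultured libraries. Chd7, the gene mutated in CHARGE syndrome, gave 204, 141, 132, 160.1 and 159.9 CPM in fresh and 100.3, 90.3 and 72.9 CPM in cultured ones. Both were lower in every cultured library and fell, by 1.00 ± 0.31 (Chd2, adjusted p = 0.0441) and 0.87 ± 0.27 (Chd7, adjusted p = 0.0425) on the log2 scale. They are the least stable of the CHD calls, kept in 5 (Chd2) and 7 (Chd7) of the 18 alternatives, and with GC and length trends removed they stood at 0.0081 and 0.27. Leaving out any 1 fresh library ended the call of Chd2 (adjusted p = 0.0634 to 0.201), as did leaving out cultured replicates 1 or 3 (0.0522 and 0.0635). For Chd7 this held without fresh replicates 2, 3, 4 or 5 and without cultured replicates 2 or 3 (adjusted p = 0.0520 to 0.167).

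The other 6 CHD genes did not pass. Chd4, the main NuRD motor, stood at 416, 366, 330.4, 249 and 243 CPM in fresh and 303, 297 and 262 CPM in cultured libraries, a narrow range within the fresh one (0.22 ± 0.20, adjusted p = 0.460). Chd1, which travels with elongating polymerase, stood at 232, 179, 258, 171 and 229 CPM in fresh and 369.9, 311 and 224 CPM in cultured libraries. Chd8, a regulator of β-catenin targets, gave 146, 146, 132, 142 and 122 CPM in fresh and 116, 141 and 95.9 CPM in cultured ones. Both overlapped between groups (Chd1 0.59 ± 0.29, adjusted p = 0.167; Chd8 -0.17 ± 0.24, adjusted p = 0.661). Chd9 gave 182, 180.2, 194, 365 and 326 CPM in fresh and 636, 231 and 84.8 CPM in cultured libraries. The cultured libraries disagreed among themselves more than the fresh ones, from below the fresh range to above it (-0.12 ± 0.64, adjusted p = 0.934). Chd1l (ALC1), a remodeller recruited to DNA damage, gave 19.0, 8.75, 15.5, 1.58 and 10.9 CPM in fresh and 2.00, 13.6 and 5.35 CPM in cultured ones (0.16 ± 1.02, adjusted p = 0.953). The neuronal gene Chd5 gave 3.65, 8.68, 4.80, 1.83 and 1.24 CPM in fresh and 0, 2.47 and 0 CPM in cultured ones (-0.89 ± 1.84, adjusted p = 0.774). Chd5 was read in only 1 cultured library, replicate 2, and passed without it (adjusted p = 0.0119), with all remaining cultured libraries at 0.

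In 3 ratios within the CHD family, a gene that fell was set against a relative that did not pass. The Chd3 to Chd4 log2 ratio was -4.13, -3.09, -3.76, -2.76 and -2.82 in fresh and -7.82, -5.80 and -7.40 in cultured libraries, and fell by 3.69 (exact permutation test, adjusted p = 0.0337). Per transcript length, Chd3 made up 8.93% ± 3.12 (SD, n = 5) of the pair in fresh and 0.851% ± 0.668 (SD, n = 3) in cultured cells. Chd4 thus made up most of the transcripts of the pair in both, and protein was not measured. Within run 2 the ratio fell by 4.22. The Chd2 to Chd1 log2 ratio went from 0.53 ± 0.26 to -0.97 ± 0.33 (difference -1.50) and the Chd7 to Chd8 log2 ratio from 0.20 ± 0.23 to -0.42 ± 0.22 (SD; difference -0.62; exact permutation test, adjusted p = 0.0337 for each). No library overlapped between the groups in any of these 3 ratios.

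None of the 3 MTA genes, the alternative scaffolds of NuRD, passed, against 26.9% of all genes called in either direction. None did at an unadjusted p of 0.05 (2693 higher and 4846 lower of all 19054 genes) or in DESeq2 (13.1% and 22.8% of all genes). Mta1 stood at 82.8, 76.2, 54.2, 40.8 and 50.6 CPM in fresh and 24.8, 82.7 and 53.7 CPM in cultured libraries. Mta2 gave 49.9, 66.8, 60.3, 35.3 and 38.3 CPM in fresh and 44.3, 53.4 and 77.1 CPM in cultured ones. For Mta3 the values were 18.2, 19.4, 15.3, 13.0 and 25.6 CPM in fresh and 30.8, 0.772 and 5.20 CPM in cultured libraries. All overlapped. The ratio of the highest to the lowest cultured library was largest for Mta3 (39.9, against 3.33 for Mta1 and 1.74 for Mta2). Mta3 was above all fresh libraries in cultured replicate 1 and below all of them in cultured replicates 2 and 3. The log2 fold changes of the 3 genes were 0.23 ± 0.47, 0.66 ± 0.33 and -0.65 ± 1.13 (adjusted p = 0.769, 0.176 and 0.721). Without cultured replicate 1 Mta3 passed (-2.63, adjusted p = 0.0396).

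In the INO80 family, 3 of 9 genes rose and none fell, against 8.87% higher and 18% lower among all genes. The counts of these 9 were the same at an unadjusted p of 0.05 and in DESeq2. Among all 19054 genes, 2693 rose and 4846 fell at that p, and 13.1% rose and 22.8% fell in DESeq2. The ring ATPases changed most. Ruvbl2 (reptin; ENSMUSG00000003868, chromosome 7, 45421760 to 45438096) stood at 26.5, 19.4, 12.5, 19.2 and 17.5 CPM in fresh and 86.5, 127 and 109 CPM in cultured libraries, and rose by 2.55 ± 0.41 (adjusted p = 0.00331). Ruvbl1 (pontin; ENSMUSG00000030079, chromosome 6, 88465409 to 88497572) stood at 25.3, 18.6, 13.0, 20.8 and 21.8 CPM in fresh and 79.4, 85.3 and 73.1 CPM in cultured libraries, and rose by 1.89 ± 0.38 (adjusted p = 0.00743). Every cultured library was well above every fresh one for both. The proteins form mixed rings, and their transcripts did not keep a fixed ratio: the log2 ratio of Ruvbl2 to Ruvbl1 counts was 0.07, 0.06, -0.05, -0.12 and -0.32 in fresh and 0.12, 0.57 and 0.57 in cultured libraries, a rise of 0.50 (exact permutation test, adjusted p = 0.0337).

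Of the motors, Ino80 stood at 76.0, 68.7, 71.2, 56.4 and 52.1 CPM in fresh and 219, 83.9 and 104 CPM in cultured libraries. It was higher in every cultured library and rose by 1.32 ± 0.41 (adjusted p = 0.0428), but the highest library, cultured replicate 1, stood apart from the others, and without it the value was 0.86. The call was lost in 9 of the 18 alternatives: without any 1 of the 5 fresh libraries (adjusted p = 0.0685 to 0.180), with RLE factors (0.0526), within run 2 (0.126), against run-1 fresh libraries only (0.96, 0.0700) and with the replicate block (0.85, 0.103). Srcap stood at 579, 567, 500.0, 366 and 415 CPM in fresh and 326, 621 and 581 CPM in cultured libraries. Ep400 gave 246, 204, 167, 243 and 200.0 CPM in fresh and 370.0, 295 and 279 CPM in cultured ones. Srcap overlapped (0.38 ± 0.29, adjusted p = 0.365), while Ep400 was higher in every cultured library without passing (0.51 ± 0.25, adjusted p = 0.173). Their log2 ratio did not pass either (0.54, exact permutation test, adjusted p = 0.280). The line of Gm42715 took 1.68 to 12.0% of its sum with Srcap in fresh and 0.290 to 7.90% in cultured libraries. The remaining subunits Ino80b, Ino80c, Ino80d and Ino80e did not pass (adjusted p = 0.256, 0.212, 0.619 and 0.996), and Ino80b was near 1 CPM throughout.

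Of the 4 other SNF2 ATPases, 1 rose and 1 fell, against 8.87% higher and 18% lower among all genes. Hells (LSH; ENSMUSG00000025001, chromosome 19, 38930915 to 38971051), which is needed for DNA methylation of repeats and is known as a gene of proliferating cells, stood at 2.11, 2.00, 3.06, 1.39 and 7.10 CPM in fresh and 67.8, 55.2 and 77.7 CPM in cultured libraries. Fresh levels were low and cultured ones uniformly high, and Hells rose by 3.98 ± 0.74 (adjusted p = 0.00561), the largest rise of all 53 lines. It was 3.28 with fresh replicate 4 left out, 5.59 with fresh replicate 5 left out and 4.86 against run-1 fresh libraries only. Atrx, the motor that places histone H3.3 at repeats and telomeres, stood at 269, 216, 339, 791 and 702 CPM in fresh and 508, 335 and 346 CPM in cultured libraries. Fresh libraries of run 2 were far above those of run 1, and the cultured ones reached from within the run-1 range to between the runs. By the fit with run as a term, which sets cultured libraries against run 2, Atrx fell by 0.91 ± 0.27 on the log2 scale (adjusted p = 0.0363). Against run-1 fresh libraries alone the change was 0.58, of the opposite sign, and the call was kept in 7 of 18 alternatives. It was lost within run 2 (adjusted p = 0.0519) and without fresh replicates 1, 4 or 5 or cultured replicates 2 or 3 (0.0547 to 0.172). Smarcad1 stood at 16.0, 12.7, 22.5, 51.4 and 34.3 CPM in fresh and 90.2, 40.7 and 74.2 CPM in cultured libraries. Smarcal1, which protects stalled replication forks, gave 25.8, 21.6, 13.2, 16.2 and 17.7 CPM in fresh and 0, 22.0 and 15.2 CPM in cultured ones. Neither passed (Smarcad1 0.67 ± 0.45, adjusted p = 0.299; Smarcal1 -0.45 ± 1.46, adjusted p = 0.869), and Smarcal1 had no count in cultured replicate 1. Smarcad1 passed against run-1 fresh libraries only (2.05, adjusted p = 0.00592), with the replicate block (2.03, 0.0225) and with no run term (1.32, 0.0475).

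Of the 7 ARID proteins outside SWI/SNF, 2 fell and none rose, against 18% lower and 8.87% higher among all genes. At an unadjusted p of 0.05, and also in DESeq2, 3 fell and none rose. Among all 19054 genes, 4846 fell and 2693 rose at that p, and 22.8% fell and 13.1% rose in DESeq2. Arid5a (ENSMUSG00000037447, chromosome 1, 36307733 to 36324029), known as an RNA-binding protein that stabilises inflammatory transcripts, stood at 201, 193, 205, 126 and 173 CPM in fresh and 2.37, 9.16 and 4.94 CPM in cultured libraries. Cultured levels were a small fraction of every fresh one, and Arid5a fell from 179.6 ± 32.6 to 5.49 ± 3.43 CPM (-4.76 ± 0.50, adjusted p = 0.000493). Arid5b (ENSMUSG00000019947, chromosome 10, 68092520 to 68278740), a partner of the histone demethylase PHF2, stood at 324, 312, 382, 302 and 325 CPM in fresh and 6.96, 47.1 and 69.3 CPM in cultured libraries. Again all cultured libraries were lower, and Arid5b fell by 2.93 ± 0.70 on the log2 scale (adjusted p = 0.0148), with the call lost without fresh replicate 4 (0.0606) or 5 (0.0664) and within run 2 (0.0567). Arid3a, Arid3b, Arid3c, Arid4a and Arid4b did not pass (adjusted p = 0.429, 0.108, 0.327, 0.266 and 0.299). Arid3b was lower in every cultured library, at 17.5, 11.7, 14.3, 6.38 and 8.47 CPM in fresh and 0.316, 0 and 1.99 CPM in cultured ones, and passed without cultured replicate 3 (-5.52, adjusted p = 0.0151).

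The ratios of paralogs gave a view that scaling cannot move. Of 17 pairs of paralogs, 9 differed between the groups without overlap at an adjusted p of 0.0337, and all 17 kept their sign within run 2. For the 9 without overlap that sign was fixed in advance. Within run 2 alone, 10 regroupings allow no p below 0.1. All 9 had the smallest p that the exact permutation test over 56 regroupings allows, 0.0179, so their p does not rank them. Ratios of other gene pairs were not computed, so the 9 of 17 has no background. Of all single genes tested, 39.9% had cultured libraries all on one side of the fresh ones. Besides the ratios above, Actl6b to Actl6a was among the 9 (difference -3.25), resting on at most 20 Actl6b counts. The 8 that did not pass are Smarcd3 to Smarcd1, Smarcd3 to Smarcd2, Smarcd2 to Smarcd1, Arid2 to Arid1a, the 3 ratios among Mta1, Mta2 and Mta3, and Ep400 to Srcap, with differences from -2.05 (Mta3 to Mta2) to 0.54 (exact permutation test, adjusted p = 0.0607 to 0.482).

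**Figure D4:**
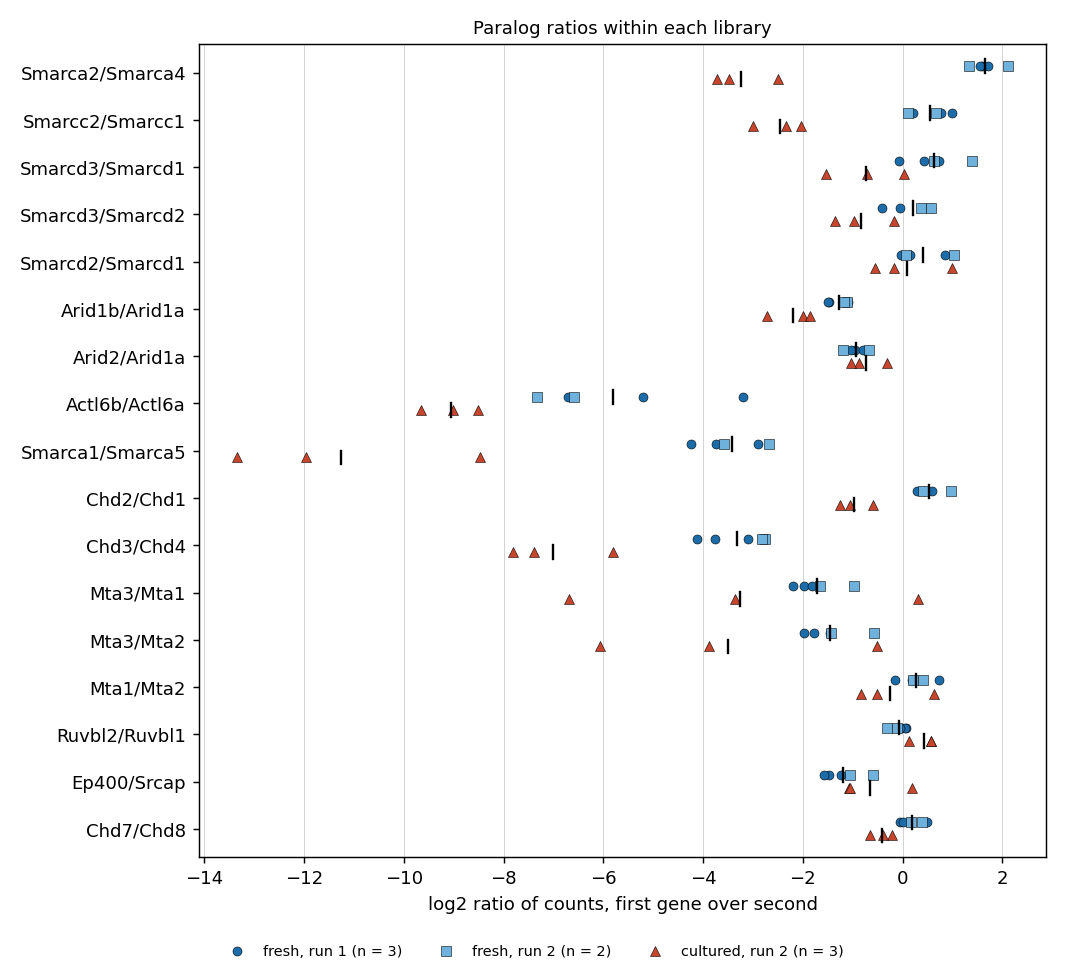
Log2 ratio of counts for each of the 17 paralog pairs (x axis) in each library. Circles are fresh libraries of run 1, squares fresh of run 2 and triangles cultured. In 9 pairs the triangles lie apart from all fresh points, furthest for Smarca1 to Smarca5 (difference -7.83) and Smarca2 to Smarca4 (difference -4.90).

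Ordered by level per kilobase of the longest transcript, the 50 genes of a complex or family changed places. In fresh cells Chd4 (47.9 ± 11.2 CPM per kilobase, SD, n = 5), Smarca2 (47.8 ± 10.1), Srcap (45.6 ± 8.77), Atrx (45.1 ± 25.7) and Arid5b (43.4 ± 4.11) led, and neighbours in that order differed by less than the larger of their SDs. The order of the fresh leaders depended on the run. Atrx stood at 26.7 CPM per kilobase (mean of 3) in run 1 and 72.6 (mean of 2) in run 2, where it led, and Chd4 went from 55.4, the highest of run 1, to 36.7. In cultured cells Smarcc1 (55.4 ± 6.31 CPM per kilobase, SD, n = 3), Srcap (47.8 ± 15.0), Ruvbl1 (47.3 ± 3.63), Ruvbl2 (46.4 ± 8.72) and Smarca5 (46.0 ± 4.70) led, and neighbours again differed by less than the larger of their SDs. Smarca2 went from rank 2 to 34, Arid5b from 5 to 33 and Arid5a from 8 to 42, while Smarca4 went from 25 to 7, Smarcc1 from 23 to 1, Ruvbl1 from 27 to 3 and Ruvbl2 from 30 to 4. Srcap (3 and 2) and Chd1 (9 and 9) held their places. Actl6b was last in both groups.

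Other genes of the same complexes were taken from lists by name, with 56 of 57 tested: 8 rose and 4 fell, 14.3% and 7.14%, against the 8.87% and 18% of all genes. NuRD partners held 4 of the rises among 9 genes and no fall (5 and 0 at an unadjusted p of 0.05, and 4 and 0 in DESeq2). Among all 19054 genes, 2693 rose and 4846 fell at that p, and 13.1% rose and 22.8% fell in DESeq2. The 4 NuRD partners that rose were the histone-binding subunits Rbbp4 (from 67.0 ± 11.7 to 144 ± 7.34 CPM, 1.29 ± 0.26, adjusted p = 0.00771) and Rbbp7 (from 107 ± 13.5 to 281 ± 113 CPM, 1.33 ± 0.35, adjusted p = 0.0216), which also serve other histone complexes, and Cdk2ap1 (1.12 ± 0.34, adjusted p = 0.0415) and the deacetylase Hdac2 (0.74 ± 0.24, adjusted p = 0.0474). Of 14 tested SWI/SNF partners 1 fell, Gltscr1l, a subunit of the non-canonical complex (from 113 ± 10.1 to 39.7 ± 3.28 CPM, -1.43 ± 0.23, adjusted p = 0.00354). Of 9 ISWI partners, Baz1a (ACF1) rose by 1.13 ± 0.31 (adjusted p = 0.0258) and Baz2b and Rsf1 fell, by 1.67 ± 0.28 (adjusted p = 0.00384) and 1.16 ± 0.24 (adjusted p = 0.00870) on the log2 scale. Of 22 partners in INO80, SRCAP and TIP60 complexes, the INO80-bound deubiquitinase Uchl5 (from 8.41 ± 2.42 to 80.7 ± 52.6 CPM, 3.23 ± 0.65, adjusted p = 0.00733) and the histone reader Yeats4 (2.18 ± 0.53, adjusted p = 0.0164) rose and Epc1 fell (-1.25 ± 0.23, adjusted p = 0.00555). Cdca7, which recruits HELLS to chromatin, stood at 2.56, 4.07, 3.54, 0.442 and 0.456 CPM in fresh and 24.4, 41.4 and 15.8 CPM in cultured libraries and rose by 5.90 ± 0.84 (adjusted p = 0.00186), as Hells did. The value of Uchl5 was 2.62 without cultured replicate 1, and that of Cdca7 ranged from 2.98 to 6.31 over the 18 alternatives, the only one of these 12 called in all of them. With GC and length trends removed, an alternative added for these genes after the data were seen, none of the 4 falls passed (Gltscr1l -0.64, Baz2b -0.74, Rsf1 -0.064 and Epc1 -0.72; adjusted p = 0.148, 0.152, 0.923 and 0.0981) and 13 partners were higher. Gltscr1l, Baz2b and Epc1 passed in the other 17 alternatives. Rsf1, Uchl5, Rbbp7, Yeats4 and Baz1a lost the call without fresh replicate 5, Rbbp4, Rbbp7 and Yeats4 without fresh replicate 4, and Baz1a also without cultured replicate 3. Baz1a and Rsf1 also lost it against run-1 fresh libraries only (adjusted p = 0.0586 and 0.0563) and with the replicate block (0.103 and 0.130). Within run 2 the call was lost by Rbbp7 (0.0616), Yeats4 (0.0627), Baz1a (0.0705), Hdac2 (0.116) and Cdk2ap1 (0.117). With no run term Baz1a lost it (0.0518), and without scaling factors Rsf1 did (0.0582). Hdac2 kept it in 8 and Cdk2ap1 in 10 of the 18.

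Between the runs of fresh cells none of the 53 lines passed, against 0.189% of all genes (36 of 19054), by the run coefficient of the same edgeR fit. An unadjusted p under 0.05 was met by 6 of the 53, against 2959 of all 19054 genes. DESeq2 called 1, Atrx (1.44 ± 0.27 in edgeR, adjusted p = 0.0603). Replicates agreed less well in culture: the coefficient of variation was higher in cultured than in fresh libraries for 37 of 53 lines (69.8%, against 74.3% of all genes), with medians of 36.9% and 25.9%, against medians of 69.9% and 43.3% over all genes. The pseudogene Smarce1-ps1 and the transcript Ino80dos also differed between cultured libraries. Smarce1-ps1 took 68.8% of its sum with Smarce1 in cultured replicate 1 and 13.7% in replicate 3. The split of reads between these copies limits what can be said of Smarce1. None of the 4 lines tested that are not genes of a complex or family passed (Smarca5-ps, adjusted p = 0.0777; Smarce1-ps1, 0.0579; Ino80dos, 0.415; Gm42715, 0.817; at an unadjusted p of 0.05, Smarca5-ps and Smarce1-ps1 passed, and DESeq2 called both). Calls were also gained when 1 library was left out. Without cultured replicate 1 this held for Actl6a (2.15, adjusted p = 0.00828), Smarce1 (1.23, 0.0317), Srcap (0.68, 0.0469), Ino80c (1.72, 0.0264) and Ino80dos (-3.56, 0.0301). It held without cultured replicate 2 for Arid4a (-0.92, adjusted p = 0.0486), without cultured replicate 3 for Smarce1-ps1 (1.76, 0.0342), and without fresh replicate 5 for Arid3a (adjusted p = 0.0428), for which the remaining fresh library of run 2 held no count. With GC and length trends removed, calls were gained by Chd1 (1.48, 0.0160), Chd4 (1.11, 0.0216), Mta2 (1.11, 0.0342), Ep400 (1.72, 0.00882) and Srcap (1.59, 0.00255), each value followed by its edgeR adjusted p. Actl6a passed in 6 of the 18 alternatives, and Chd1 and Ep400 also without scaling factors (adjusted p = 0.0264 and 0.0250).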

How the data were processed

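Per the labels' protocols, a Qiagen micro kit was used for RNA, NuGEN Ovation for cDNA amplification and an Illumina kit for libraries. The submitters' processing notes name STAR, RSEM and mm10. Versions and the annotation are not stated there. The table that the authors deposited holds RSEM expected counts for each gene, and 50.1% of values above 0 were not whole. RSEM divides reads between similar genes. Counts were rounded, 92 spike-in lines were left out, and groups and runs were taken from the labels. Lines without an identifier (0.385 to 0.568% of counts) stayed in. Gene totals per library ranged from 13919440 to 20068154; no molecular identifiers are mentioned, so amplification noise is not separable.

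Genes were kept by edgeR's filterByExpr (19054), scaled by TMM factors and tested in R 4.3.3 by the quasi-likelihood method of edgeR 4.0.16. The model held run and culture, with Benjamini-Hochberg adjustment over all tested genes at 0.05 and 5 residual degrees of freedom. Since run 1 held fresh cells only, the culture term compares with fresh replicates 4 and 5. Standard errors were derived from each fold change and its test statistic and are approximate. Paralog ratios are log2 of counts plus 0.5 in each library, with an exact permutation test over libraries, on the absolute difference of means. The fit was tested on simulated data. No libraries agreed within sampling noise. The labels do not say whether libraries of equal replicate number are paired, and the main model held no pairing. Alternatives were DESeq2 1.42.0, RLE or no scaling, no filter, no run term, subsets by run, a replicate block, unrounded counts, GC and length trends removed, and leaving out each library. Values of every tested ATPase, every gene in a paralog pair and every other called member are given, and up to 3 called partners per list with the largest change and a mean of at least 10 CPM; Hdac2, Arid3b, Smarce1 and Pbrm1 were added after their values were seen. Chd3 had no promoter entry. The members and lists were chosen with earlier results of these data known.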

Additional observations from a re-analysis of the deposited data

Results flagged for a closer look

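In 3 of 72 members and ratios examined over the 5 fresh libraries, 1 library stood further from its neighbour than Dixon's critical share of the range for 5 values, 0.710; chance alone marks about 1 in 20 groups. Arid5b was highest in fresh replicate 3, at 382 CPM against 302 to 325 CPM in the other 4 (gap over range 0.72), and its level in culture lay far below all 5. Actl6b held 20 counts in fresh replicate 3 and 1 to 4 in the others (0.821). Chd3os held 60 counts in fresh replicate 5 and 0 to 13 in the others (0.79). Actl6b and Chd3os were below the filter on low counts, and the cause of the 3 high values was not tested.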

How the results depend on the processing

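Of the 53 remodeller lines, 7 higher and 10 lower became 17 and 6 with GC and length trends removed, 13 and 6 without scaling factors, 12 and 6 against run-1 fresh libraries only, 9 and 5 with the replicate block, 6 and 4 within run 2, and 11 and 11 with no run term. The shares of all genes higher and lower moved too: 13.0% and 15.2% with the trends removed, and 12.9% and 15.0% without scaling factors. They were 13.3% and 25.4% against run-1 fresh libraries only, and 7.3% and 7.5% with the replicate block. Within run 2 they were 6.2% and 10.9%, and with no run term 12.5% and 24.4%. With 1 library left out they ranged from 4 to 10 higher and 4 to 12 lower, both lowest without fresh replicate 4, and the lower count also 4 without fresh replicate 5. The count between runs went from 0 to 1 (Atrx) in DESeq2, with no low count filter and without cultured replicate 1 (0 to 1 over single libraries left out). Of the partner genes, 8 higher and 4 lower became 13 and 0 with GC and length trends removed, 12 and 4 against run-1 fresh libraries only and 9 and 3 with the replicate block (alternatives chosen for them after seeing the data), 10 and 3 without scaling factors and 11 and 5 with DESeq2. Higher ones were 3 within run 2, and 2 to 10 with 1 library left out (4 without fresh replicate 4 and 2 without fresh replicate 5). With DESeq2 the members were 10 higher and 12 lower, against 13.1% and 22.8% of all genes. Among the 38 named members, 71 values lost a call, 30 gained one and 36 changed sign.

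Changes of sign were seen in these values. With GC and length trends removed: Smarcd3 0.10, Arid1a 0.60, Arid2 0.56, Chd2 0.0081, Chd5 0.042, Chd7 0.27, Chd8 0.78, Chd9 1.16, Mta3 0.18 and Atrx 0.25. Without scaling factors: Arid2 0.073, Chd8 0.25, Chd9 0.19 and Smarcal1 0.044. With no run term: Chd1l -0.67, Chd4 -0.16, Chd9 0.35 and Mta1 -0.18. Against run-1 fresh libraries only: Chd1l -0.96, Chd4 -0.31, Chd9 0.80, Mta1 -0.32, Srcap -0.032 and Atrx 0.58. With the replicate block: Chd1l -1.33, Chd4 -0.30, Chd9 0.39, Mta1 -0.46, Srcap -0.094 and Atrx 0.59. With 1 library left out, values ranged from -0.72 (without cultured replicate 2; also below 0 without fresh replicate 4, -0.57) to 2.17 for Chd1l. They ranged from -1.07 to 0.31 for Chd9, from -0.19 to 0.64 for Mta1 and from -1.09 to 0.19 for Smarcal1. Of these only Chd2, Chd7 and Atrx were called. The cause was not tested. Same-numbered libraries correlated at 0.0296, 0.0103 and 0.0108 in their deviations, under 0.1, so the replicate block pairs by number only. Each library did correlate best with its own number, a hint from the data and not the design. Of the 17 paralog ratios, 14, among them the 9 that passed, kept their sign under every alternative run for them, the replicate block included. In those 9 the groups did not overlap, so no subset of the libraries could change the sign. For them the kept sign is no measure of stability. With 1 library left out the difference ranged from -0.77 to 0.0023 for Smarcd2 to Smarcd1 and from -3.31 to 0.20 for Mta3 to Mta1 (both above 0 without cultured replicate 2), and from -0.018 (without cultured replicate 1) to 0.34 for Arid2 to Arid1a. No p was computed for these subsets. Genes under about 1 CPM, such as Actl6b, Ino80b and Arid3c, are limited by depth.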
